A study of Rattus norvegicus with 39 samples.

Results

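The comparison described here is that of repeated ketamine with saline in D1-expressing medium spiny neurons (D1-MSNs) of the nucleus accumbens (NAc) of proestrus females. Its members are the 10 immunoprecipitated (IP) libraries whose titles place them in the D1-Cre line, in proestrus, and in the ketamine group (libraries 2, 10, 18, 26 and 34) or the saline group (libraries 1, 9, 17, 25 and 33), out of 39 libraries in all. The rats of both groups were Long Evans females heterozygous for a Cre recombinase driven by the Drd1a promoter (D1-Cre), infused in the NAc with a Cre-dependent AAV that tags ribosomes with hemagglutinin (RiboTag). The ketamine group received 6 intraperitoneal injections of 10 mg/kg racemic ketamine, each given in proestrus, and the saline group received 6 injections of saline on the same schedule. Tissue was taken 4 days after the last injection, 30 min after return to the testing context without drug, and each library came from 2 mm NAc punches of 1 rat. Ketamine-treated rats were used for sequencing only if their activity had increased over the course of treatment, a selection that the saline group did not undergo, so ketamine and the selected response cannot be told apart. The RNA is that bound to tagged polyribosomes, so a difference can lie in the amount of an mRNA, in its loading on ribosomes or in the number of tagged cells, and fewer cells and less RNA per cell cannot be told apart.

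D1-MSNs are GABAergic projection neurons that carry the dopamine D1 receptor, which raises cAMP, and they form the direct output pathway of the striatum. In the NAc they take part in reward, in the locomotor response to stimulants, and in the lasting changes that repeated drug exposure leaves in synapses. Ketamine blocks NMDA-type glutamate receptors. Proestrus is the stage of the rat estrous cycle in which circulating estradiol and progesterone peak.

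Total counts in the 10 libraries ranged from 16118050 to 24784447. In library 33, a saline library, the 10 genes with the most counts took 12.7% of all counts, and in the other 9 libraries they took 3.39% to 3.61%. The larger share came from 4 genes without a symbol here, which together held 10.5% of the counts of library 33 and 0.265% to 0.491% of those of the other 9. The normalization factor (TMM) of library 33 was 0.904, below the 0.978 to 1.01 of the others. Results are therefore given for all 10 libraries and again for the 9 that remain without library 33. The label could be checked by name with 1 defining gene only, since 1966 of the 23978 gene identifiers could be paired with a symbol and Drd1, Pdyn and Tac1 are not among them. Adora2a, the adenosine A2a receptor that marks D2-expressing neurons, lay between 141 and 221 CPM (counts scaled to the normalized library size) in the 20 D1-Cre libraries and between 452 and 1063 in the 19 D2-Cre libraries. The values did not overlap between the lines. Within proestrus D1 libraries, Adora2a was at 171 ± 19.3 with ketamine and 180 ± 22 with saline (mean ± SD, n = 5 each), a log2 fold change of -0.06 (SE 0.09, unadjusted p = 0.497, edgeR).

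**Figure D1:**
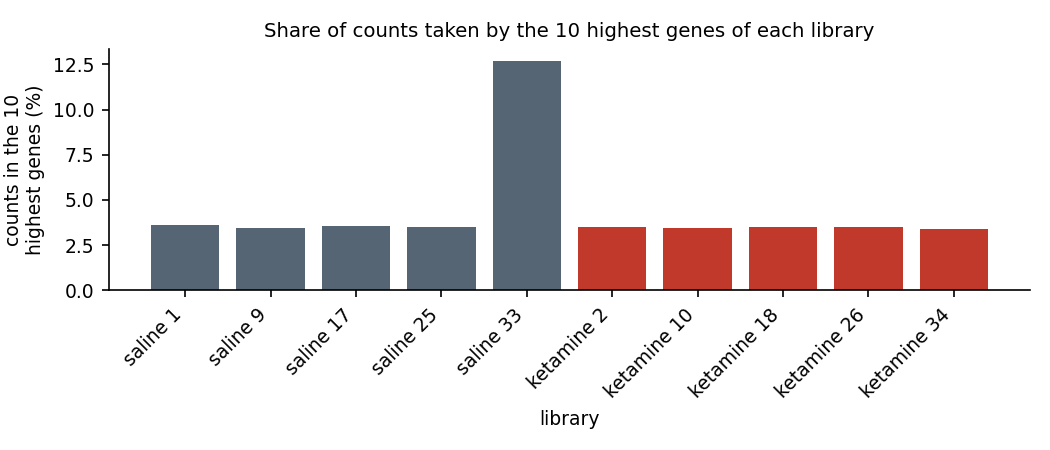
Share of all counts (%) taken by the 10 highest genes of each proestrus D1 library, saline in grey and ketamine in red. The bar of saline library 33 reaches 12.7%, and the others lie between 3.39% and 3.61%.

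A single gene passed the threshold in all 10 libraries. Col11a2 (ENSRNOG00000000463), which encodes the alpha 2 chain of type XI collagen, a minor component that is built into fibrils of the extracellular matrix, was higher with ketamine. It read 19.0, 17.5, 17.7, 18.9 and 13.0 CPM in ketamine libraries 2, 10, 18, 26 and 34, and 11.3, 11.3, 9.94, 6.98 and 7.97 CPM in saline libraries 1, 9, 17, 25 and 33. Every ketamine library lay above every saline library, with library 34 the lowest of its group and close to the highest saline values. The underlying counts ranged from 133 to 387 per library, well above the filter on low counts. The log2 fold change was 0.88 (SE 0.11, adjusted p = 0.0178, edgeR's quasi-likelihood test with 2 surrogate variables and Benjamini-Hochberg adjustment), and the groups' means were 17.2 ± 2.45 and 9.5 ± 1.96 CPM (SD, n = 5 each). Without library 33 it was 0.86 (SE 0.12, adjusted p = 0.0448). Leaving out 1 of the 10 libraries at a time kept the fold change between 0.80 and 0.99, but the adjusted p was above 0.1 without ketamine library 2 (0.118), 10 (0.151) or 26 (0.615) or without saline library 17 (0.231). In edgeR it was also lost without surrogate variables (log2 fold change 0.86, adjusted p = 0.798), with 1 (0.87, adjusted p = 0.462), without a filter on low counts (0.80, adjusted p = 0.268) and with blocks of consecutive library numbers in place of the surrogate variables (0.87, unadjusted p = 9.54e-05, adjusted p = 1). It was kept in edgeR with the 3 surrogate variables estimated from the data (0.87, adjusted p = 0.00316) and in DESeq2 without surrogate variables (0.86, adjusted p = 0.000621, and 0.80, adjusted p = 0.0128, without library 33).

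**Figure D2:**
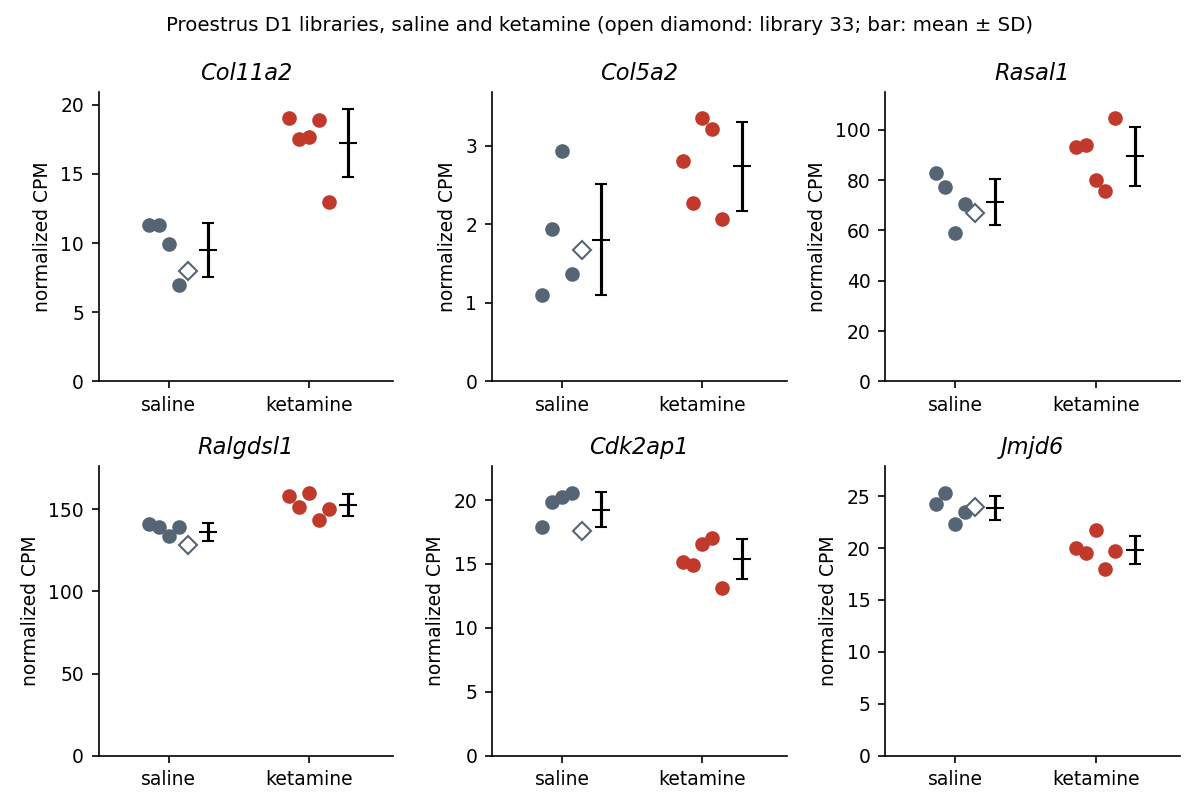
Normalized CPM of 6 genes in each proestrus D1 library, saline in grey and ketamine in red, with bars for the mean and SD of each group (n = 5) and an open diamond for library 33. Col11a2, Ralgdsl1, Cdk2ap1 and Jmjd6 have no value shared between the ranges of the groups, whereas those of Col5a2 and Rasal1 overlap.

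The promoter of Col11a2 is shown because this gene carries the call, and that of Col5a2 because it encodes a partner chain of the same kind of fibril and had the next largest positive fold change among the genes listed by p. Both run from 250 bases before to 50 after the annotated start (RefSeq, rat build GRCr8), at chr20:4817599-4817898 on the minus strand for Col11a2 and chr9:55090102-55090401 on the minus strand for Col5a2, and capitals mark the GC box GGGCGG, the motif of Sp1-type zinc finger factors, on either strand.
Col11a2: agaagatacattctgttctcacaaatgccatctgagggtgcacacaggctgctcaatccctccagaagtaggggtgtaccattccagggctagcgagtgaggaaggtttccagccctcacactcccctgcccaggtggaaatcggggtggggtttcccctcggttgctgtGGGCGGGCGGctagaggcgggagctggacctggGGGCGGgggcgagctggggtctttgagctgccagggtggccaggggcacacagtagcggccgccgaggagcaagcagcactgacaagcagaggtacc
Col5a2: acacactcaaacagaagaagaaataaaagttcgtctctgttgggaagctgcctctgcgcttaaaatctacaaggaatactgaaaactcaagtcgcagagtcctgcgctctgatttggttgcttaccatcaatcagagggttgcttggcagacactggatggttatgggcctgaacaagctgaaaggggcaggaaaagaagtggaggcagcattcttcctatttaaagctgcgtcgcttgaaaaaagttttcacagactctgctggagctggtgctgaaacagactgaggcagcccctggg
The Col11a2 window holds 3 matches to GGGCGG, of which a pair overlaps, and the Col5a2 window holds 0, while 33.1% of the 33469 rat promoter windows of this length hold at least 1. The cAMP response element TGACGTCA (in 1.83% of windows), the AP-1 motif TGANTCA (7.33%) and the hormone response half-site AGGTCA (16.2%) have 0 matches in either window on either strand. The letters describe these windows only, and no binding was measured here.

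Rxrb, a retinoid X receptor gene, is annotated next to Col11a2 on the same strand, with Slc39a7, Hsd17b8 and Ring1 beyond it, and these 4 neighbours were looked at after the value of Col11a2 was known. Rxrb lay between 75.6 and 87.8 CPM with ketamine and between 75.5 and 88.9 CPM with saline, so the groups covered the same range. Its log2 fold change was -0.03 (SE 0.05, unadjusted p = 0.515). Those of Slc39a7, a zinc transporter, Hsd17b8, a steroid dehydrogenase, and Ring1, a Polycomb subunit, were -0.05, -0.08 and -0.04, with unadjusted p of 0.388 to 0.53.

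Across all genes, 1 of 13183 tested was called in the 10 libraries (0.00759%), higher with ketamine, and 764 (5.8%) had an unadjusted p under 0.05, 485 higher and 279 lower. The median log2 fold change over all genes tested was 0.00. The groups did not overlap in 96 genes (0.728%). DESeq2, with the same 2 surrogate variables, called 16 genes, 14 higher and 2 lower, among them Col11a2 (adjusted p = 1.68e-09) and Rasal1 (adjusted p = 0.0867). Without library 33, edgeR called 3 of 13338 genes (0.0225%) and DESeq2 called 46, with 23 in each direction. The 9-library calls were Col11a2 and a pair of identifiers with no symbol here, both lower with ketamine, ENSRNOG00000005964 (log2 fold change -0.86, SE 0.11, adjusted p = 0.0986) and ENSRNOG00000068412 (-0.59, SE 0.10, adjusted p = 0.0991). With library 33 their adjusted p were 0.847 and 0.81. ENSRNOG00000005964 was at 33.3, 20.9, 30.6, 33.1 and 46.8 CPM with ketamine, at 40.4, 74.9, 75.3 and 44.8 CPM in saline libraries 1, 9, 17 and 25, and at 33.8 CPM in library 33. Ketamine library 34 lay above saline libraries 1 and 25, so the groups overlapped even in the 9 libraries. Of the 764 genes with an unadjusted p under 0.05 in 10 libraries, 550 (72%) also had one in the 9-library fit, where they made up 55.7% of the 988 such genes that both fits tested, and all 550 kept their direction. The fits share 9 libraries, so they are not separate evidence.

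**Figure D3:**
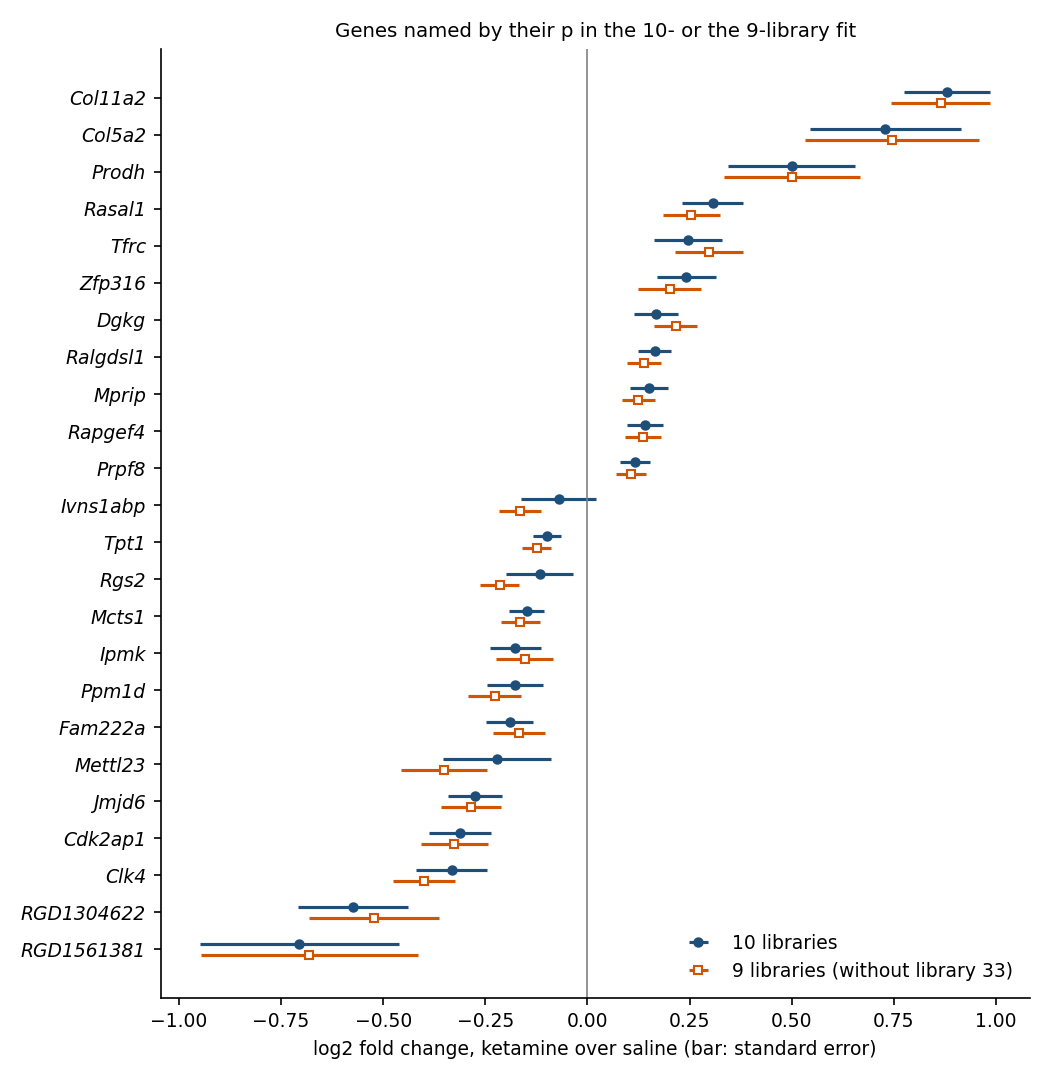
Log2 fold change of ketamine over saline with its standard error for the genes with a symbol that had the lowest p in either direction, in 10 libraries (filled circles) and in 9 without library 33 (open squares). All 24 genes lie on the same side of 0 in both fits, and Rgs2, Mettl23 and Ivns1abp lie further below 0 without library 33.

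Of the 1502 tested genes with a symbol, 79 (5.26%) had an unadjusted p under 0.05 in 10 libraries, 43 higher and 36 lower, and Col11a2 alone was called. The other genes named below did not pass the adjusted threshold in edgeR, and their values are given as measured. They are those with the lowest p in each direction and the members of gene lists that had a p under 0.05 or no overlap between groups.

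Rasal1 encodes a GTPase-activating protein that switches Ras off in response to calcium. It read 93.2, 94.0, 80.1, 75.5 and 105 CPM in ketamine libraries 2, 10, 18, 26 and 34, and 83.0, 77.3, 59.0, 70.4 and 66.7 CPM in saline libraries 1, 9, 17, 25 and 33. The ranges overlapped through ketamine libraries 18 and 26 and saline libraries 1 and 9. Its log2 fold change was 0.31 (SE 0.07, unadjusted p = 0.00157, adjusted p = 0.609) and 0.25 (SE 0.07, adjusted p = 0.338) without library 33. DESeq2 with 2 surrogate variables put its adjusted p at 0.0867 over 10 libraries and 0.0979 over 9.

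Ralgdsl1, which encodes an exchange factor that loads Ral with GTP, read 158, 152, 160, 144 and 150 CPM with ketamine and 141, 139, 134, 139 and 128 CPM with saline, in the same order of libraries. The groups did not overlap, and library 33 was the lowest saline library. The log2 fold change was small, 0.16 (SE 0.04, adjusted p = 0.599) in 10 libraries and 0.14 (SE 0.04, adjusted p = 0.368) in 9. Rapgef4 encodes Epac2, an exchange factor for Rap that is opened by cAMP, and its log2 fold change was 0.14 in both fits (unadjusted p = 0.00818 and 0.00739).

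Col5a2 (alpha 2 chain of type V collagen, which joins type XI in thin fibrils) was a low-count gene, at 2.80, 2.27, 3.35, 3.22 and 2.06 CPM with ketamine and 1.1, 1.94, 2.93, 1.37 and 1.68 CPM with saline. Saline library 17 reached into the ketamine range, and the other 4 saline libraries lay below every ketamine library. The log2 fold change was 0.73 (SE 0.18, unadjusted p = 0.00166, adjusted p = 0.609), and 0.75 (SE 0.21, adjusted p = 0.338) without library 33. Col1a1, the main chain of type I collagen, was at 0.94 (SE 0.33, unadjusted p = 0.0135) on 4 to 27 counts per library, with 4 in library 33. Col6a1, of the beaded filaments of type VI collagen, was at 0.56 (SE 0.25, unadjusted p = 0.0396), and its unadjusted p was 0.0522 without library 33.

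Of the collagen genes with a paired symbol, 10 in all, 7 had enough counts to be tested. In the 10 libraries 1 of the 7 was called, 4 had an unadjusted p under 0.05 (all higher with ketamine; 3.68% of all genes tested did so), and the median log2 fold change was 0.56. Without surrogate variables that median was 0.38. Col3a1 (0.28) and Col6a2 (0.16) lay on the higher side and Col18a1 (-0.12), a basement membrane collagen, on the lower side, with unadjusted p of 0.351 to 0.62. The list includes Col11a2 and Col5a2, which were already known to be high, so its count is not separate from theirs. Of the 11 fibrillar collagens, 4 were tested (Col1a1, Col3a1, Col5a2 and Col11a2), and all 4 fold changes were positive in both fits.

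**Figure D4:**
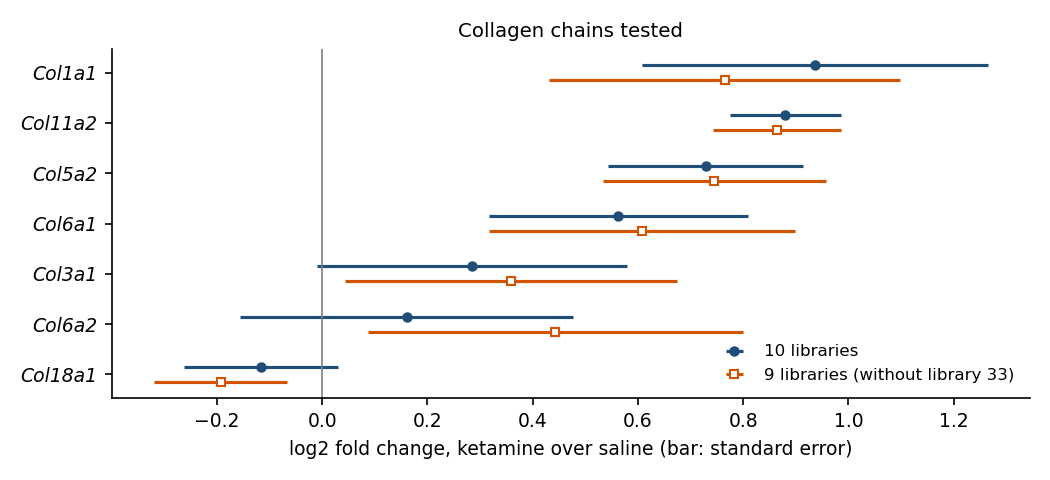
Log2 fold change of ketamine over saline with its standard error for the 7 collagen chains tested, in 10 libraries (filled circles) and in 9 without library 33 (open squares). Of these, 6 lie above 0 in both fits, Col18a1 lies below it, and Col11a2 has the smallest standard error of the chains above 0.

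Collagens are also made by fibroblasts and vascular cells, so markers of other cell types were measured in the same libraries. Of the fibroblast list, 2 of 5 members had a symbol, and both are collagens (Col1a1 and Col3a1), with a summed level of 1.8 to 3.25 CPM with ketamine and 1.47 to 2.18 CPM with saline. The vascular markers Flt1 and Rgs5 (2 of 12 members) summed to 3.00 to 5.10 CPM with ketamine and 3.25 to 4.79 CPM with saline, and neither had an unadjusted p under 0.05. The microglial markers Aif1 and Tmem119 (2 of 10) summed to 1.63 to 2.77 CPM with ketamine and 1.16 to 1.89 CPM with saline. Tmem119, on 10 to 38 counts, was at 0.77 to 1.90 CPM with ketamine and 0.60 to 0.89 CPM with saline, a log2 fold change of 0.89 (SE 0.30, unadjusted p = 0.0103, adjusted p = 0.792). It moved in the direction of Col11a2, and its part in the result was not tested. None of these markers was at 0 in any of the 10 libraries.

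Astrocyte markers (Gfap, Gja1, S100b and Sox9, 4 of 10 members) summed to 105 to 130 CPM with ketamine and 97.0 to 139 CPM with saline. Among them Gja1, the gap junction protein connexin 43, stood at a log2 fold change of 0.22 (unadjusted p = 0.0168), and the median of the list was 0.01. The oligodendrocyte marker Mog was at 5.05 to 8.40 CPM with ketamine and 5.03 to 7.96 CPM with saline, with a log2 fold change of 0.19 (unadjusted p = 0.189). Oligodendrocyte precursor markers (Pdgfra and C1ql1, 2 of 6) summed to 7.82 to 10.1 CPM and 5.20 to 11.0 CPM. Kl, a gene of the choroid plexus (1 of 6), was at 6.74 to 9.64 CPM with ketamine and 4.43 to 8.66 CPM with saline, a log2 fold change of 0.40 (unadjusted p = 0.0178), and library 33 held its lowest value, without which it was 0.26 (unadjusted p = 0.0508). Interneuron markers (Sst, Nos1 and Kit, 3 of 15) summed to 378 to 620 CPM with ketamine and 301 to 874 CPM with saline. Sst, the somatostatin gene, supplied 5805 to 18586 counts per library in these D1-Cre IPs and had a log2 fold change of 0.03. The red cell gene Alas2 was at 0 to 3 counts.

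Other genes on the higher side belonged to no single list. Zfp316, a zinc finger protein gene, read 19.1, 17.0, 17.8, 17.8 and 18.6 CPM with ketamine and 15.4, 16.8, 15.8, 14.8 and 14 CPM with saline. The groups did not overlap, by the narrow margin between ketamine library 10 and saline library 9. Its log2 fold change was 0.24 (SE 0.07, adjusted p = 0.751). Prodh, which starts the breakdown of proline in mitochondria, was at 0.50 in both fits (SE 0.16 and 0.17), on 3.09 to 6.84 CPM. Dgkg, a diacylglycerol kinase, stood at 0.17, Mprip, a partner of myosin phosphatase, at 0.15, and Prpf8, the central protein of the spliceosome, at 0.12, with unadjusted p of 0.00615 to 0.00848. In the 9 libraries the transferrin receptor Tfrc (0.30) joined the 10 lowest p, at an adjusted p of 0.338.

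Among the genes with a symbol that were listed on the lower side, Jmjd6, Cdk2ap1 and Mcts1 had no overlap between groups. Jmjd6, an oxygenase that modifies arginine and lysine residues of splicing and chromatin proteins, read 20.0, 19.5, 21.7, 17.9 and 19.8 CPM with ketamine and 24.2, 25.3, 22.3, 23.5 and 24.0 CPM with saline. No ketamine library reached the lowest saline library, and library 33 lay inside the saline range. The log2 fold change was -0.28 (SE 0.07, unadjusted p = 0.00116, adjusted p = 0.599), and -0.29 (SE 0.07, adjusted p = 0.262) without library 33. Cdk2ap1, which binds the cell cycle kinase Cdk2 and belongs to a nucleosome-remodelling complex, was at 13.1 to 17.1 CPM with ketamine and 17.6 to 20.6 CPM with saline. The groups again did not overlap, with library 33 the lowest saline library, and the log2 fold change was -0.31 (SE 0.08, adjusted p = 0.599) in 10 libraries and -0.33 (SE 0.08, adjusted p = 0.24) in 9.

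Clk4, a kinase of the SR proteins that guide splice site choice, read 19.1, 16.9, 19.7, 16.2 and 22.1 CPM with ketamine and 24.9, 25.7, 21.9, 23.2 and 21.6 CPM with saline. Ketamine library 34 lay within the saline range, between saline libraries 17 and 25, and the other 4 ketamine libraries lay below it. The log2 fold change was -0.33 (SE 0.09, adjusted p = 0.609), and -0.40 (SE 0.08, adjusted p = 0.125) without library 33, where DESeq2 gave an adjusted p of 0.0182. Mcts1, which helps ribosomes to re-initiate, was at 47.4 to 52.7 CPM with ketamine and 53.2 to 57.4 CPM with saline, a log2 fold change of -0.15 (SE 0.04, adjusted p = 0.751) with no overlap. Tpt1, an abundant translationally controlled growth protein, stood at -0.10 (unadjusted p = 0.0118) and at -0.12 (unadjusted p = 0.00239) without library 33, whose value of 326 CPM was the lowest of the saline group.

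The value of Rgs2 depended on library 33. It encodes a regulator that shortens G protein signalling and is itself induced quickly by neuronal activity. Ketamine libraries read 186, 165, 189, 174 and 178 CPM, saline libraries 1, 9, 17 and 25 read 202, 225, 207 and 194 CPM, and library 33 read 151 CPM. Library 33 thus lay below every ketamine library, while the other 4 saline libraries lay above all of them. The log2 fold change was -0.12 (SE 0.08, unadjusted p = 0.185) in 10 libraries and -0.21 (SE 0.05, unadjusted p = 0.000329, adjusted p = 0.176) in 9, and DESeq2 with 2 surrogate variables gave an adjusted p of 0.0258 in the 9 libraries. Mettl23, an arginine methyltransferase, had the same layout, at 7.07 to 9.03 CPM with ketamine, 9.28 to 11.4 CPM in the other 4 saline libraries and 6.95 CPM in library 33. Its log2 fold change went from -0.22 (unadjusted p = 0.118) to -0.35 (unadjusted p = 0.0041). Ivns1abp, a kelch-domain protein gene, went from -0.07 (unadjusted p = 0.462) to -0.17 (unadjusted p = 0.00532), and Ppm1d, a phosphatase of the p53 response, from -0.18 (unadjusted p = 0.0231) to -0.23 (unadjusted p = 0.00278).

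The remaining genes with low p on the lower side were Fam222a (-0.19), Ipmk, an inositol phosphate kinase (-0.18), RGD1304622 (-0.57) and RGD1561381, which resembles a microsomal glutathione transferase (-0.71), all log2 fold changes in 10 libraries with unadjusted p of 0.000928 to 0.0146. RGD1561381 and RGD1304622 were below 6.2 CPM in each of the 10 proestrus D1 libraries. The groups did not overlap in 11 symbol-paired genes (0.732% of the 1502, beside 0.728% of all genes tested). Of these, 5 fell outside these rankings and were picked out after their values were seen. These were Nfe2l2 (0.37), the transcription factor of the oxidative stress response, Llgl1 (0.14) and Cog1 (0.11) on the higher side, and Erg (-0.65) and Kif19 (-0.62) on the lower side, with unadjusted p of 0.0169 to 0.0565.

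Activity-regulated genes were looked at because tissue was taken after context re-exposure. Of 51 immediate early and activity-regulated genes, 8 had a symbol and 7 had enough counts. In 10 libraries 0 were called, 1 was higher and 0 were lower at an unadjusted p under 0.05, beside 3.68% higher and 2.12% lower over all genes tested, and 6 of 7 fold changes were negative, with a median of -0.08. Btg2, an antiproliferative gene induced by activity, was the higher one, at 10.1, 5.33, 5.34, 10.4 and 5.72 CPM with ketamine and 5.13 to 6.44 CPM with saline. Ketamine libraries 2 and 26 stood well above the rest and the other 3 lay within the saline range (log2 fold change 0.40, SE 0.16, unadjusted p = 0.0265, adjusted p = 0.823). Without library 33 Rgs2 and Egr2 had an unadjusted p under 0.05 on the lower side, as did 3.32% of all genes tested. Egr2, a zinc finger transcription factor, went from -0.23 (unadjusted p = 0.417) to -0.44 (unadjusted p = 0.0225).

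Receptor and signalling lists held few genes with a symbol. Of the NMDA receptor genes 1 of 7 was tested, Grin2c, at a log2 fold change of 0.10 (unadjusted p = 0.333). The kainate receptor subunits Grik1 and Grik2 (2 of 9 in the AMPA and kainate list) were at 0.14 and -0.02. Of the postsynaptic scaffold list, Dlg3 stood at 0.07. Dopamine and cAMP signalling was represented by 3 of 25 genes, the adenylyl cyclase Adcy5 (-0.01), Rgs4 (-0.08) and Rgs9 (-0.00), with a median of -0.01, and Adcy5 was at -0.11 (unadjusted p = 0.0302) without library 33. Rptor, Rps6kb1 and Gsk3b, 3 of 15 genes of the mTOR and BDNF list, had a median of 0.03. Of the chromatin list, the cohesin subunit Smc1a was at 0.12 (unadjusted p = 0.0292) and Daxx at 0.01. Of the m6A list, the methyltransferase Mettl16 was at -0.13 (unadjusted p = 0.0384), with Ythdc1 at 0.01 and Prrc2a at 0.03. The 5 ribosomal protein genes lay between -0.06 and -0.01, and the MSN genes Gad1, Adcy5 and Rgs9 had a median of -0.01. None of these genes was called, and the difference of each median from 0.00 was not tested.

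The same contrast in diestrus D1 libraries (10 libraries) and in proestrus D2 libraries (9 libraries) was set beside it. Col11a2 stood at a log2 fold change of 0.88 (SE 0.11) in proestrus D1, -0.18 (SE 0.10) in diestrus D1 and -0.02 (SE 0.35) in proestrus D2. Its levels in diestrus D1 were 12.2 ± 1.04 CPM with saline and 10.9 ± 1.52 CPM with ketamine (SD, n = 5 each), and every diestrus library lay between 8.98 and 13.7 CPM. Ketamine-treated proestrus D1 libraries thus lay above the diestrus D1 libraries in 4 of 5 cases, while library 34, at 13.0 CPM, lay among them. In the 9 proestrus D2 libraries Col11a2 was more variable, at 15.9 to 44.7 CPM. The means of the other groups, in ascending order, were 9.5 CPM in proestrus D1 saline, 10.9 and 12.2 CPM in diestrus D1, 17.2 CPM in proestrus D1 ketamine, and 23.6 to 30.5 CPM in the D2 groups. Neighbours among the first 3 differed by less than the larger of their SDs, and the D2 groups overlapped each other widely.

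**Figure D5:**
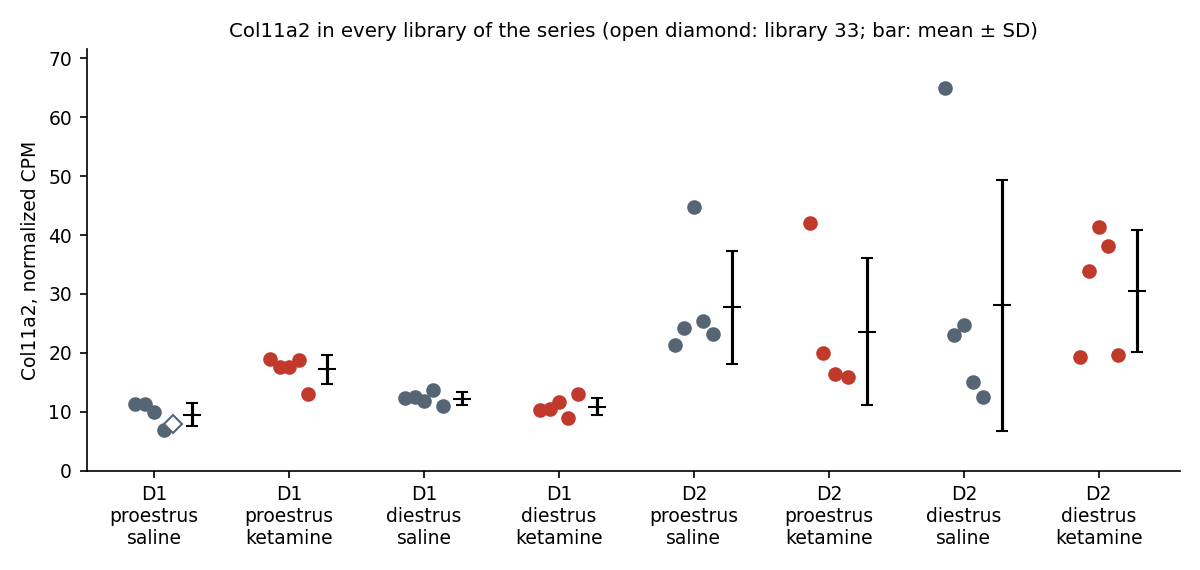
Normalized CPM of Col11a2 in every library of the 8 groups, saline in grey and ketamine in red, with bars for the mean and SD (n = 5, and n = 4 for ketamine-treated proestrus D2) and an open diamond for library 33. Within the D1 line the ketamine-treated proestrus libraries are the highest group (mean 17.2 CPM), and D2 libraries reach from 12.5 to 65.1 CPM. The lowest D2 value, in diestrus saline library 39, rests on 30 counts of Col11a2. That library has the fewest total counts of the series (2396517).

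The difference between the stages was tested as an interaction over the 20 D1 libraries. For Col11a2 it was 1.03 on the log2 scale (proestrus minus diestrus, SE 0.19, unadjusted p = 1.63e-05, adjusted p = 0.111), and 0.98 (SE 0.19, adjusted p = 0.105) without library 33. DESeq2 put the adjusted p of this difference at 0.000698 with library 33. Over all genes, 0 of 13593 were called with library 33 (0%; 659, or 4.85%, at an unadjusted p under 0.05) and 4 of 13701 (0.0292%) without it, 3 higher and 1 lower, while DESeq2 called 6 with it. None of the 4 has a symbol here. ENSRNOG00000013953 (0.61, SE 0.09, adjusted p = 0.0162) and ENSRNOG00000008915 (0.61, SE 0.11, adjusted p = 0.0777) were at -0.37 each in diestrus D1, where both were called (adjusted p = 0.052 each), as 2 of the 3 calls among 13214 genes there (0.0227%). In proestrus D1 without library 33 they were at 0.22 and 0.26 and were not called (adjusted p = 0.338 and 0.279). Library 33 read 78.0 and 87.3 CPM for these genes, above the highest of the other proestrus saline libraries (45.4 and 52.9 CPM), and with it their adjusted p were 0.993 and 0.982. The third higher gene was the remaining diestrus call, at -0.37 (adjusted p = 0.089). In proestrus D1 without library 33 it was at 0.24 and was not called (adjusted p = 0.576). Its stage difference was 0.61 (SE 0.10, adjusted p = 0.0834 without library 33 and 0.986 with it). It had the same layout, with library 33 at 267 CPM beside at most 178 CPM in the other proestrus saline libraries. The lower gene did not (-0.50, SE 0.09). Its adjusted p was 0.0861 without library 33 and 0.111 with it, and library 33, at 18.9 CPM, lay inside the 18.4 to 22.8 CPM of the other proestrus saline libraries. Among the other genes named above, Rasal1 had a stage difference of 0.32 (SE 0.08, unadjusted p = 0.000761) and Clk4 of -0.40 (SE 0.13, unadjusted p = 0.00555), each at an adjusted p of 0.982.

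The difference between cell types in proestrus was tested over 19 libraries, and 0 of 13774 genes were called (0%; 411, or 2.98%, at an unadjusted p under 0.05; 0 by DESeq2), nor was any without library 33. For Col11a2 it was 0.78 (D1 minus D2, SE 0.36, unadjusted p = 0.047, adjusted p = 0.998). Jmjd6 (-0.44, SE 0.11, unadjusted p = 0.000555) and Clk4 (-0.43, SE 0.11, unadjusted p = 0.000678) had the lowest unadjusted p of the named genes. RGD1304622 had a negative fold change in all 3 contrasts, -0.57 in proestrus D1, -0.45 in diestrus D1 and -0.54 in proestrus D2, and these contrasts share no libraries. It was not called in any of them.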

How the data were processed

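Polyribosome-bound RNA was sequenced from 1 rat per library. Per the labels and methods, the authors trimmed reads with fastp (0.23.4), quantified transcripts with Salmon (1.10.2) against the mRatBN7.2 transcriptome and summed them per gene. The deposited values are these expected counts, already whole numbers and not normalized; the corrections for transcript length that can accompany them were not used. Columns headed by library number were matched to titles. In R 4.3.3, low-count genes were removed with filterByExpr (count minimum 10, groups given), TMM factors were computed, and edgeR 4.0.16 was used for the test (quasi-likelihood, robust, Benjamini-Hochberg, called at adjusted p under 0.1) with 2 surrogate variables from sva 3.50.0. CPM values were normalized over all 39 libraries. Interactions were fitted over the 20 D1 or the 19 proestrus libraries. Alternatives included DESeq2 1.42.0. The steps were tested on simulated counts.

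Of 23978 identifiers, 1966 were paired with symbols through tables of low identifier numbers, so genes are named among these: those called, the 10 lowest p per direction in each fit, Rasal1, and list members with an unadjusted p under 0.05 or separate groups. Of the D1-MSN markers and the genes named in earlier work on these groups, 0 could be paired. A check on transcript length was not run, since under 80% of genes had one. Libraries and lists were chosen with earlier results of these data known, Col11a2 among them. Rats came from several litters, which the labels do not give. Some genes that these rules name are not reported here.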

Additional observations from a re-analysis of the deposited data

Results flagged for a closer look

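In 78 groups of 5 values (the named genes in each treatment group, and library totals, normalization factors and top-gene shares), 7 had a value that stood apart by Dixon's ratio, where chance gives about 1 in 20. The share of counts in the 10 highest genes was 12.7% in saline library 33 and 3.45% to 3.61% in the other saline libraries. Col11a2 was lowest in ketamine library 34, at 13.0 CPM beside 17.5 to 19.0 CPM in the other 4. Col6a1 was highest in ketamine library 26, at 1.95 CPM beside 0.797 to 0.971 CPM, and highest in saline library 17, at 1.65 CPM beside 0.524 to 0.779 CPM. Ipmk was highest in saline library 33, at 25.9 CPM beside 21.6 to 22.9 CPM. Mettl16 was lowest in ketamine library 26, at 24.4 CPM beside 28.4 to 29.7 CPM. Prpf8 was lowest in saline library 1, at 210 CPM beside 267 to 280 CPM. The ketamine difference differed between proestrus and diestrus D1 libraries in 4 genes, by the interaction test without library 33, and in 0 with it.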

How the results depend on the processing

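The groups share no replicate number, and the blocks used here are consecutive runs of 8 library numbers, each with 1 ketamine and 1 saline library, which no label describes as a pair. In 10 libraries the 1 call became 0 without surrogate variables, with 1, without a filter on low counts or with these blocks, 26 with the 3 surrogate variables that num.sv gave, 16 in DESeq2 with 2 surrogate variables and 3 without, and 0 to 3 with each library left out. In the 9 libraries without library 33 the 3 calls became 0 without surrogate variables, with 1 or with the blocks, 1 at a threshold of 0.05, 27 without a filter, 46 in DESeq2 with 2 surrogate variables and 1 without, and 0 to 9 with a further library left out. The calls by cycle stage, 0, became 6 in DESeq2 and 4 without library 33, and those by cell type stayed at 0 under the 4 alternatives run. The cause of these differences was not tested. None of the named genes changed direction in the 10-library fit under the alternatives run for it. Col11a2 was not called in 8 of the 19 alternatives to the 10-library fit or in 6 of the 18 to the 9-library fit, and Rasal1 was called in 1 of each, DESeq2 with 2 surrogate variables. Replicates were 5 rats a group, and small changes such as those of 0.1 to 0.3 on the log2 scale were not simulated.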
